A study of Mus musculus with 2 samples.

Results

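The 7 genes described here encode the surface molecules by which white blood cells stop on an inflamed vessel wall: the selectins Sele and Selp, the selectin ligand Selplg, the immunoglobulin-family adhesion molecules Icam1, Icam2 and Vcam1, and the chemokine-binding receptor Ackr1. They were taken by symbol from the gene table, where all 7 of 7 were found among 32285 genes, and followed across endothelial subtypes, leukocytes and the other cells of 2 single-cell RNA libraries. Both libraries were made from the temporomandibular joint (TMJ) of C57BL/6 mice injected in the joint with Complete Freund's Adjuvant (CFA), an oil emulsion that inflames joints. The WT library came from wild-type mice and the mutant library from Prox1 mutant mice, which the study's methods give as Prox1+/-, a heterozygous genotype written without a Cre driver. Prox1 is the transcription factor that specifies lymphatic endothelium, and the series asked what lymphatic vessels do in TMJ arthritis. The labels give an age of 8 to 10 weeks for both, and the methods give female mice. The number of mice pooled and the time after CFA were not stated, and no joint without CFA was analysed here. Each condition was 1 library, so no test between WT and mutant was possible: every interval below is a 95% interval that covers counting error only, and the difference between genotypes and the difference between these libraries cannot be told apart.

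Summed over all kept cells, the targeted gene was lower in the mutant library. This sum depends on which cells each library caught as well as on the level per cell. Prox1 stood at 11.6 CPM, the UMIs (unique molecular identifiers, the counted RNA molecules) of a gene per 1000000 UMIs, in WT against 5.80 CPM in the mutant over all kept cells (563 and 315 UMIs), a log2 difference of -1.01 (-1.21 to -0.80). A cell was kept with at least 500 genes detected and under 10% mitochondrial UMIs, which left 4352 of 5709 WT and 5757 of 7846 mutant barcodes, with medians of 6997 and 4848 UMIs per cell. The libraries shared 10 barcodes, 4 of them among kept cells. Endothelial cells were 26.3% of WT and 10.4% of mutant kept cells, and leukocytes 29.3% and 29.9%. The endothelial class that includes the few lymphatic cells, described below, held 287 WT and 116 mutant Prox1 UMIs. Without its lymphatic and Stab2-positive cells, also defined below, 30 and 65 were left. There Prox1 was higher in the mutant library (log2 1.75), while in the lymphatic cells it was lower. The part of cell makeup in the summed Prox1 difference was not tested. Clusters left unnamed held 523 WT and 1580 mutant cells. Haemoglobin genes took 3.39% of WT and 8.76% of mutant UMIs.

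Leukocytes leave the blood in steps. They first roll on selectins, which bind sugar-bearing ligands such as the product of Selplg, then receive chemokine signals on the vessel wall, and finally hold fast through integrins that bind Icam1, Icam2 or Vcam1. In most tissues this takes place in postcapillary venules, where inflammatory cytokines induce Sele, Selp, Icam1 and Vcam1, while Icam2 is kept on resting endothelium. Ackr1 carries chemokines across venular endothelium without signalling through G proteins, and it is also the Duffy antigen of red cells.

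Sele and Selp lie on the same strand of chromosome 1 with 57.6 kb between them (mm10, Sele chr1:164048234-164057677 and Selp chr1:164115264-164150026). Ackr1 (chr1:173331886-173333750) is on the same chromosome, 16.8 Mb from Prox1. Icam1 (chr9:21015985-21028817), Icam2 (chr11:106377656-106388075), Vcam1 (chr3:116109949-116129688) and Selplg (chr5:113818536-113832644) are elsewhere. The 250 bases before the RefSeq start of Sele, Selp and Icam1 (GRCm38.p6, plus strand) are shown because Sele and Selp were the members held most narrowly by 1 endothelial class, as described below, and Icam1 the member found in the most cell types. Capitals mark the matches to the letters searched. TATAAA was sought on both strands, as were the NF-kB consensus and its 9-letter variant GGAAATTCC, which share letters and can overlap.
Sele promoter, chr1:164047984-164048233: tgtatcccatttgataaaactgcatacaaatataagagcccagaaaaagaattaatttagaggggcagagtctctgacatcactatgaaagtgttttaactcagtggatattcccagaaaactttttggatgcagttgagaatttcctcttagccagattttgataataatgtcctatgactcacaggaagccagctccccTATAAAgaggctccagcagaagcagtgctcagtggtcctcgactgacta
Selp promoter, chr1:164115014-164115263: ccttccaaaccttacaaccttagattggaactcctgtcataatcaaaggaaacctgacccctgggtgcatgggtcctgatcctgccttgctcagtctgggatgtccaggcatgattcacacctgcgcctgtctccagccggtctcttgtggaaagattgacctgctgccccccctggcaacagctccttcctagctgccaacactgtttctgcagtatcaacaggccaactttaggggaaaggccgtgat
Icam1 promoter, chr9:21015690-21015939: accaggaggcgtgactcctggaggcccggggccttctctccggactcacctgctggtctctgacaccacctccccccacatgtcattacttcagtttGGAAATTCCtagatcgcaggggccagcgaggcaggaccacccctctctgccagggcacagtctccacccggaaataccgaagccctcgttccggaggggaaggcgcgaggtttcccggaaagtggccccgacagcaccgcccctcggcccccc
The Sele window held TATAAA at bases -49 to -44 from the start. At any position and on either strand, TATAAA was in 12.4% of 32851 mouse promoters of the same length. The Icam1 window held GGAAATTCC at -153 to -145, and 0.286% of promoters held it at any position. The NF-kB consensus was in 3.90% of promoters and in none of these 3 windows, nor in that of Ackr1, and the Selp window held none of the letters searched. Promoter entries were matched for 4 of the 7 genes.

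Endothelial cells were divided by clustering in which the 7 genes were not used as features, and subclusters were named from marker lists. The capillary-type class held 461 WT and 231 mutant cells and the arterial-type class 207 and 116. A class of 202 WT and 111 mutant cells is called venous-marker here because 8 of 10 venous markers were raised in it. Its makeup was mixed by its markers, since 5 of 8 sinusoidal and 2 of 10 lymphatic markers were raised too, and the naming rule without this addition would have called it sinusoidal-type. Nr2f2, the venous identity factor, stood at 318 CPM in WT against 242 CPM in mutant venous-marker cells against 52.8 and 30.9 CPM in capillary-type cells. Vwf, the von Willebrand factor gene, stood at 228 and 212 CPM against 41.2 and 31.8 CPM. Among these cells, 11 WT and 4 mutant cells had a UMI of at least 7 of 10 lymphatic markers and are called lymphatic cells, and 7 further cells in each library had a UMI of Stab2, a scavenger receptor of sinusoidal and lymphatic endothelium. Sele, Selp and Ackr1 were among the 10 leading genes of the class, so the class is described by them and not tested with them.

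The endothelial selectins were mostly in venous-marker cells in both libraries. Sele, which slows rolling leukocytes and is made on demand, had 248 UMIs in WT venous-marker cells (79.3 CPM, 69.7 to 89.8) and 342 in the mutant (168 CPM, 150 to 186), which were 84.6% and 83.6% of all its UMIs in kept cells. In capillary-type cells it had 0 UMIs in either library, which allows up to 1.65 CPM in WT against 2.58 CPM in the mutant. Its level in venous-marker cells was 48.1-fold that limit in WT and 65.1-fold in the mutant. The exact intervals of the log2 ratio to capillary-type cells started at 5.28 in WT and 5.72 in the mutant. Selp, which is stored in Weibel-Palade bodies and drives the first rolling contacts, had 1771 and 802 UMIs in venous-marker cells (566 CPM, 540 to 593, and 393 CPM, 366 to 421), or 81.5% and 79.1% of its UMIs. In capillary-type cells it had 1 UMI in WT against 5 in the mutant, 0.549 and 4.30 CPM. The log2 ratio of venous-marker to capillary-type cells was 10.01 in WT (7.53 to 15.31) and 6.52 in the mutant. Arterial-type cells held both selectins at 1.90 to 4.01 CPM.

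Ackr1 followed the selectins among vessels but was not only in vessels. It stood at 238 CPM (221 to 256) in WT against 121 CPM (106 to 137) in mutant venous-marker cells, at 2.20 CPM (4 UMIs) in WT capillary-type cells and at 0 UMIs in mutant capillary-type cells and in arterial-type cells of either library. Venous-marker cells held 62.7% of its WT UMIs and 24.1% of its mutant UMIs. Erythroid cells, the red cell precursors, held 17.4% and 50.3%, and mesenchymal cells 8.59% and 8.28%. In 291 WT erythroid cells Ackr1 stood at 62.8 CPM (54.5 to 72.0), and in 547 mutant ones at 82.1 CPM (75.1 to 89.5). An Ackr1 UMI was seen in 37.5% of WT and 49.5% of mutant erythroid cells, against 5.65% and 1.24% of Schwann cells and no B cell. Thinned to 2000 UMIs per cell, the shares were 10% and 13.8% in erythroid cells and 2.60% and 0% in Schwann cells, which should lack the gene and in which free RNA can give a UMI.

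The immunoglobulin-family genes were spread more widely, each in its own way. Icam2, the integrin ligand of resting endothelium, was nearly level across the vessel wall, at 202 CPM in WT venous-marker, 177 CPM in capillary-type and 256 CPM in arterial-type cells, and at 158, 151 and 235 CPM in the mutant. Its venous-marker to capillary-type log2 ratio was 0.19 (-0.01 to 0.39) in WT against 0.06 (-0.21 to 0.34) in the mutant, so venous-marker and capillary-type cells did not differ beyond counting error, while arterial-type cells were higher by 0.53 and 0.64. Endothelial cells held 84.9% and 65.5% of its UMIs. Icam1, the ligand of the leukocyte integrins LFA-1 and Mac-1, was detected in all 3 endothelial classes, lowest in capillary-type cells (58.2 and 57.6 CPM in WT and mutant), then arterial-type (112 and 189 CPM) and venous-marker cells (303 and 274 CPM). Vcam1, the ligand of the integrin VLA-4, had the same order with wider steps, 12.1, 50.8 and 304 CPM in WT against 15.5, 105 and 365 CPM in the mutant.

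Because Sele, Selp and Ackr1 are among the leading genes of the venous-marker class, the counts of members that follow are descriptions. Of the 6 members with enough UMIs for the comparison (at least 50 in the classes compared), 5 were at least 2-fold higher in venous-marker than in capillary-type cells in each library, all but Icam2. Sele, Selp, Vcam1 and Ackr1 reached that minimum only through venous-marker cells, as did Sele, Selp and Ackr1 in the comparison with arterial-type cells. Their place in these counts is thus no test of the class. Across all genes compared the same way 11.7% were at least 2-fold higher in WT against 11.8% in the mutant. Against arterial-type cells 5 of 6 members were at least 2-fold higher in WT, where 7.43% of genes were, and 4 of 6 in the mutant, where 8.64% were. Icam1 made that difference, 2.71-fold higher in WT against 1.45-fold in the mutant. Arterial-type over capillary-type cells, 1 of 3 members compared passed 2-fold in WT (Vcam1, 4.21-fold), where 7.02% of genes did, and 2 of 3 in the mutant (Icam1 and Vcam1), where 7.45% did. Vcam1 reached the minimum there only through arterial-type cells.

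**Figure D1:**
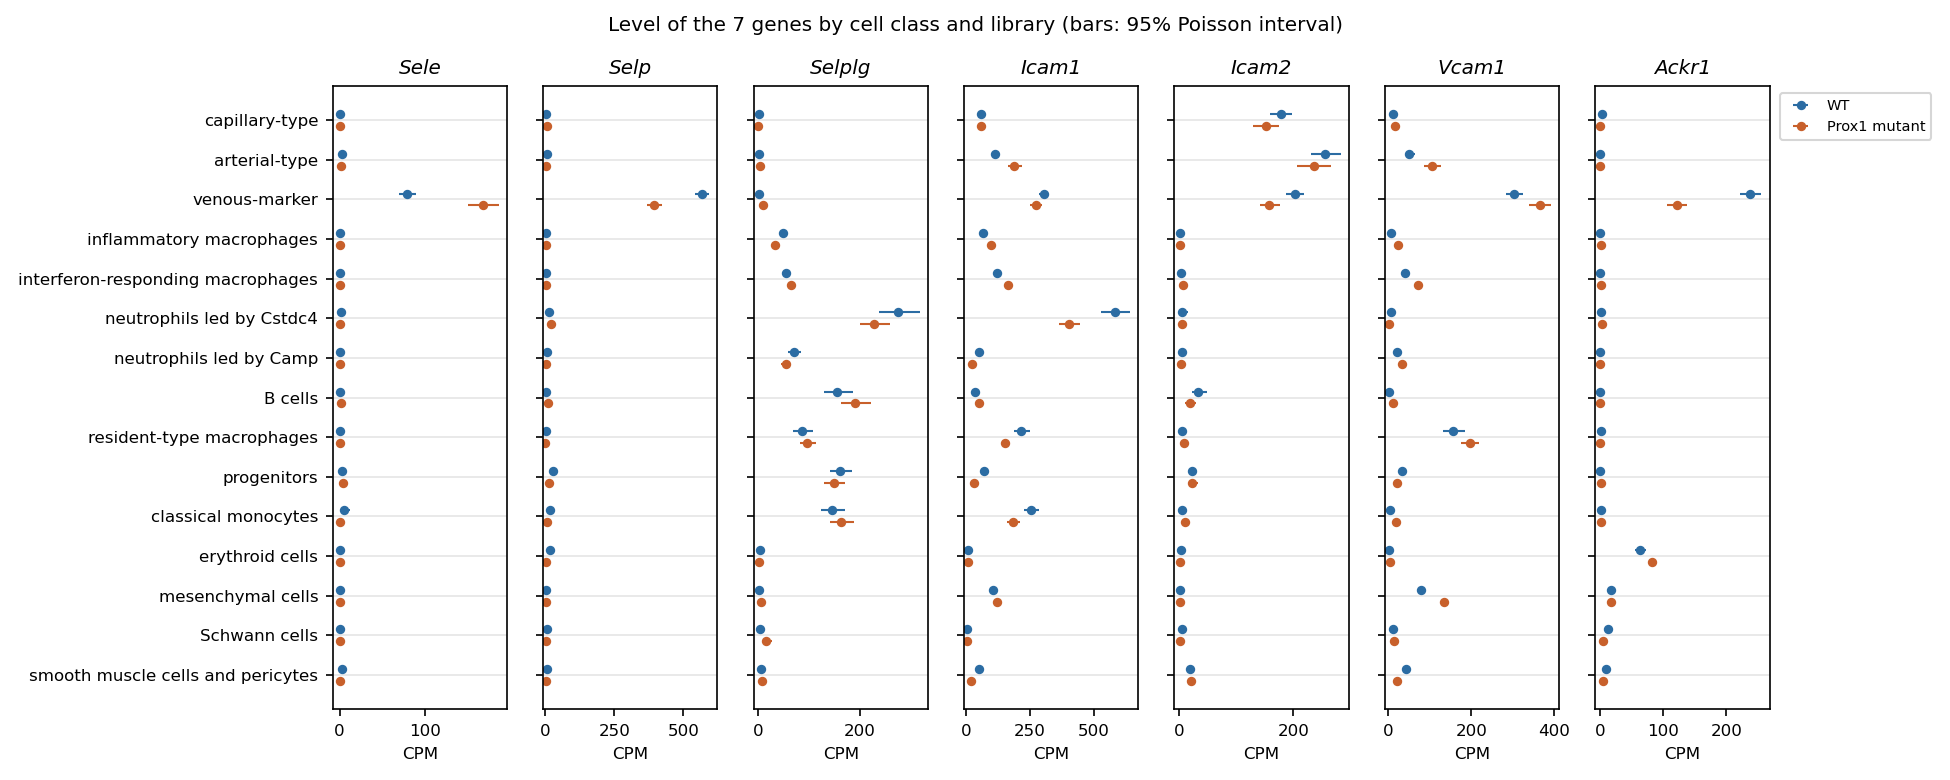
Level of each of the 7 genes in CPM, with a linear axis from 0 for each gene, in 15 cell classes of the WT and Prox1 mutant libraries; points are the summed UMIs of a class and bars their exact 95% Poisson intervals, which cover counting error only. Sele and Selp peak in venous-marker cells (79.3 and 168 CPM for Sele), Icam2 is near level across endothelial classes, and Selplg is high in leukocytes.

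Within the venous-marker class the inducible members were often found in the same cells. To compare cells of unequal depth, each was thinned to 2000 UMIs, which kept 201 WT and 111 mutant cells. Selp was then seen in 27 of 31 WT cells with an Ackr1 UMI (87.1%, exact interval 70.2 to 96.4) against 40 of 170 cells without (23.5%), and in the mutant in 13 of 15 (86.7%) against 22 of 96 (22.9%). With Sele the shares were 77.3% against 27.9% in WT against 77.8% against 22.6% in the mutant. Vcam1 and Icam1 paired with Selp more weakly: 56.1% against 22.2% and 46.2% against 25.2% in WT, and 50% against 24.7% and 56% against 24.4% in the mutant. Icam2 did not pair with it, at 29.0% of cells with Icam2 against 35.3% without in WT against 26.3% against 32.6% in the mutant. Of Sele, Selp, Icam1, Vcam1 and Ackr1, at least 1 was seen in all but 36.3% of WT and 46.8% of mutant venous-marker cells, while 93.4% and 89.1% of capillary-type and 82.8% and 69.8% of arterial-type cells had none.

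**Figure D2:**
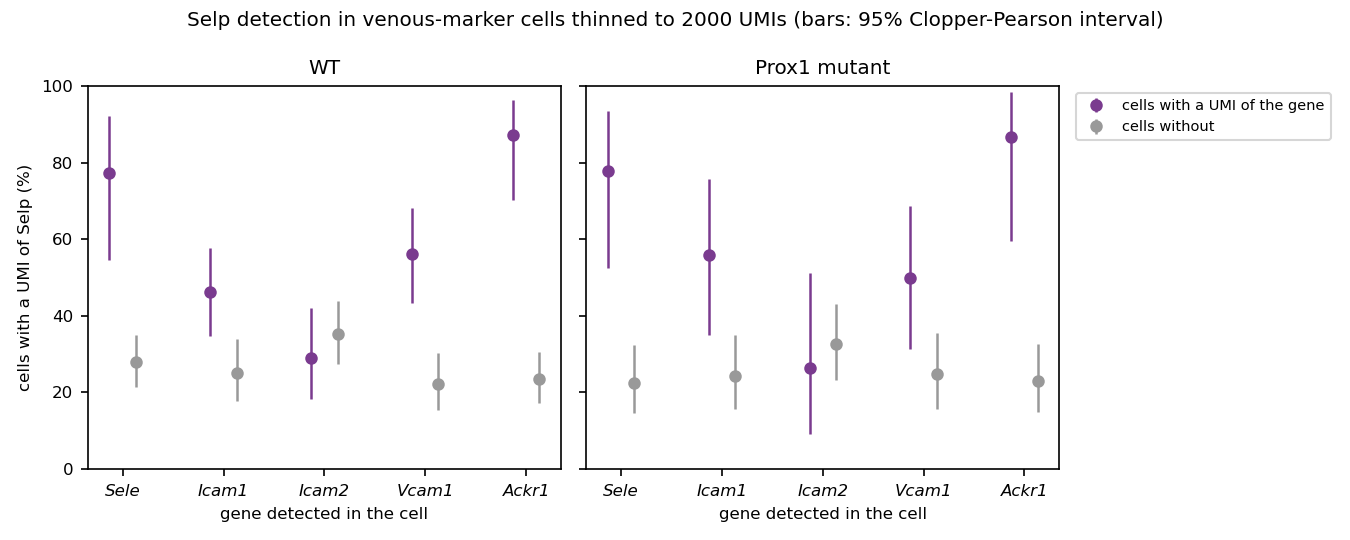
Percent of venous-marker cells with a Selp UMI among cells with and without a UMI of each other member, after thinning each cell to 2000 UMIs, for the WT and Prox1 mutant libraries; bars are exact 95% binomial intervals. The share with Ackr1 is 87.1% in WT against 86.7% in the mutant, against 23.5% and 22.9% without it, and Icam2 shows no such gap.

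The lymphatic cells carried little Sele, Selp or Ackr1 but did carry Icam1 and Icam2. In 11 WT and 4 mutant lymphatic cells Prox1 stood at 1516 and 633 CPM, Lyve1, the hyaluronan receptor of lymphatic vessels, at 283 and 1547 CPM, and Ccl21a, the chemokine that draws dendritic cells and T cells into them, at 4058 and 9520 CPM. Sele and Ackr1 had 0 UMIs in either library, which allows up to 17.7 CPM in WT against 42.2 CPM in the mutant. Selp stood at 35.4 CPM in WT, all 6 UMIs from 1 cell, and 14.1 CPM in the mutant. Icam1 was at 118 and 56.2 CPM and Icam2 at 165 and 309 CPM. The 7 Stab2-positive cells of each library were different: Selp stood at 978 and 835 CPM and Vcam1 at 700 and 610 CPM. Sele stood at 57.5 CPM in the WT Stab2-positive cells and 458 CPM in the mutant ones, where 29 of 57 UMIs came from 1 cell.

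Between the libraries the venous-marker members moved in different directions. Sele stood at 79.3 CPM in WT against 168 CPM in the mutant, a log2 difference of 1.08 (0.84 to 1.32), or 2.11-fold higher. Selp went the other way, 566 against 393 CPM (log2 -0.53, -0.65 to -0.41), and so did Ackr1, 238 against 121 CPM (log2 -0.97, -1.19 to -0.76). Thus the 2 selectins, close to each other in the genome and partly seen in the same cells, differed between the libraries in opposite directions. After thinning, most cells with Sele had Selp, but Sele was seen in 17 of 67 WT and 14 of 35 mutant cells with Selp. Vcam1 was higher in the mutant by 0.26 (0.12 to 0.40), Icam2 lower by 0.36 on the log2 scale (202 against 158 CPM), and Icam1 did not differ beyond counting error (303 against 274 CPM, log2 -0.15, -0.30 to 0.01). Of these 6 members 1 was at least 2-fold higher and none at least 2-fold lower, where 2% of the genes compared were higher by that much and 2.01% lower. Haemoglobin genes took 0.288% of WT and 1.64% of mutant UMIs in the class, and the Sele difference was 1.10 with haemoglobin and mitochondrial genes taken out of the totals. It was past 2-fold in 7 of 12 other ways of filtering, clustering or averaging the cells and lay between 0.68 and 1.65.

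Single cells carried part of these sums. The venous-marker cell with the most Selp UMIs had 91 in WT against 110 in the mutant, and without it the levels were 541 and 343 CPM. For Ackr1 the top cells had 75 and 42 UMIs, leaving 216 and 101 CPM, and for Sele 22 and 33 UMIs, leaving 72.8 and 154 CPM. The share of venous-marker cells with a UMI differed little: 24.8% and 27.9% for Sele, 44.1% and 42.3% for Selp, 26.2% and 26.1% for Ackr1 and 59.4% and 61.3% for Vcam1 in WT and mutant. Thinned to 2000 UMIs the shares were 10.9% and 16.2% for Sele, 33.3% and 31.5% for Selp, 15.4% and 13.5% for Ackr1 and 32.8% and 27.0% for Vcam1. Icam1 and Icam2 were seen in fewer mutant cells after thinning, 22.5% against 38.8% for Icam1 and 17.1% against 30.8% for Icam2. The 95% intervals of the shares of Sele, Selp, Ackr1 and Vcam1 overlapped between the libraries. Median depth in the class was 13058.5 UMIs in WT against 14238 in the mutant.

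Leaving out the lymphatic and Stab2-positive cells, 184 WT and 100 mutant cells remained. Sele then stood at 84.8 and 155 CPM, a log2 difference of 0.87 (0.61 to 1.12), Selp at 583 and 378 CPM (-0.62) and Ackr1 at 252 and 132 CPM (-0.93). Vcam1 (0.24), Icam1 (-0.08) and Icam2 (-0.41) changed little. The directions of Sele, Selp, Ackr1, Vcam1 and Icam2 were as in the whole class, but none of the 6 was past 2-fold in either direction, where 2.01% of genes were higher and 1.81% lower by that much. Prox1 itself was higher in the mutant among these remaining cells, at 10.5 CPM in WT (30 UMIs) and 35.3 CPM in the mutant (65 UMIs), the opposite of the lymphatic cells.

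**Figure D3:**
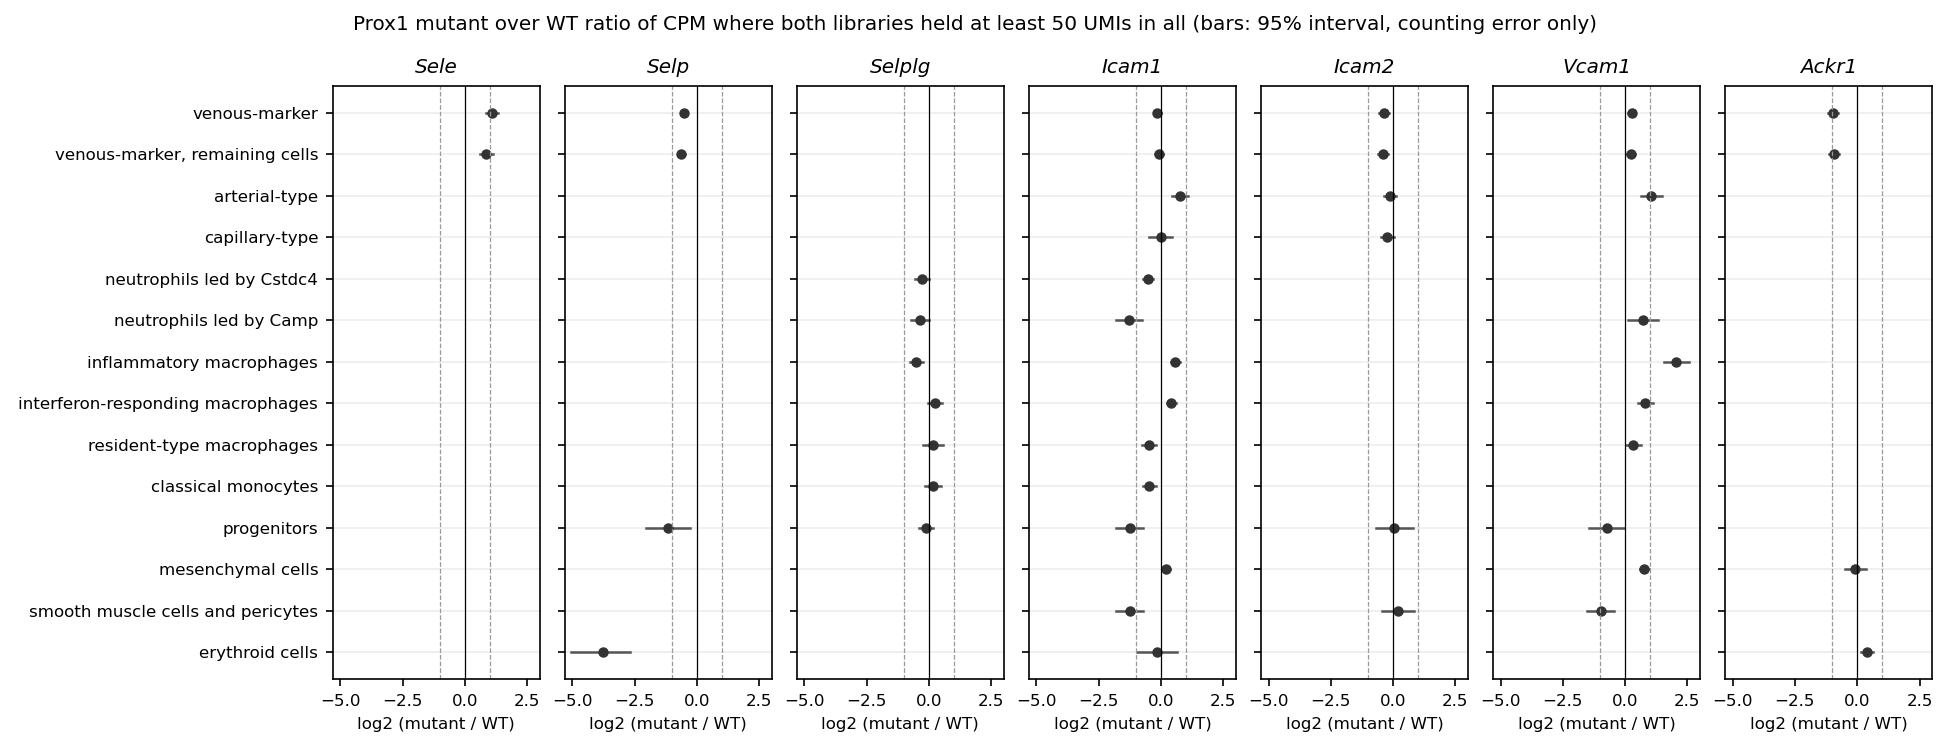
Log2 difference in level, Prox1 mutant over WT, of each member with at least 50 UMIs in a class, for 14 cell classes; bars are exact conditional 95% intervals that cover counting error only and dashed lines mark 2-fold. In venous-marker cells Sele is at 1.08 while Selp is at -0.53 and Ackr1 at -0.97, and Vcam1 is at 2.04 in inflammatory macrophages.

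Clustered more finely, the venous-marker cells fell into a pair of groups in which the library differences were not alike. The larger, led by Kit, Ubd and Sema7a, held 154 WT and 84 mutant cells. There Selp stood at 502 and 270 CPM (log2 -0.89, -1.05 to -0.74), Ackr1 at 245 and 102 CPM (-1.26, -1.51 to -1.02) and Sele at 67.4 and 113 CPM (0.75, 0.45 to 1.06). The smaller, led by Igfbp5 and Mmrn1, held 48 and 27 cells and most of the cells with a Stab2 UMI (7 in WT and 5 in the mutant, against 1 and 2 in the larger group). The smaller group also held the cells with a UMI of the lymphatic marker Ccl21a, 10 in WT and 3 in the mutant, against 0 in the larger. In the smaller group Selp stood at 884 and 992 CPM (0.17, -0.04 to 0.37) and Ackr1 at 202 and 213 CPM (0.07, -0.37 to 0.52), so neither differed beyond counting error, while Sele stood at 138 and 431 CPM (1.65, 1.23 to 2.07). Its Sele UMIs came from 16 WT and 9 mutant cells, and the part of its mixed makeup in these differences was not tested. Vcam1 differed by 0.35 in the group led by Kit and -0.04 in the group led by Igfbp5. Sele was thus higher in the mutant in both groups and lower Selp and Ackr1 were seen in the group led by Kit.

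**Figure D4:**
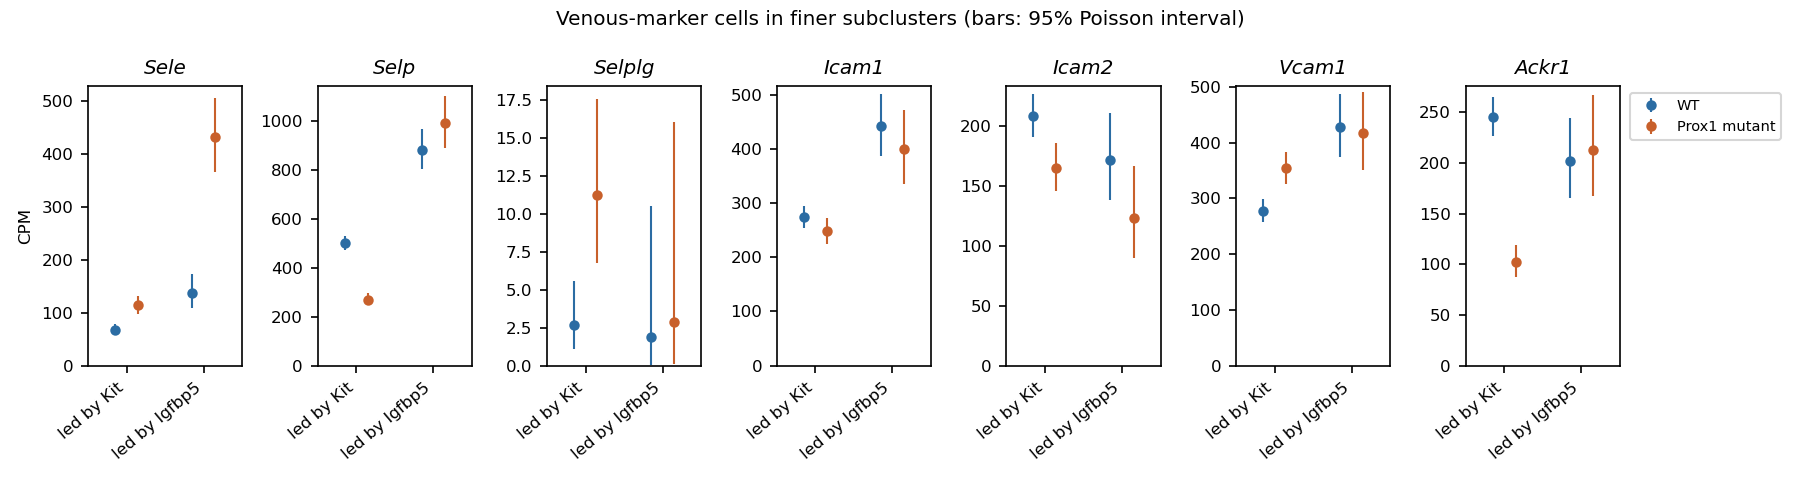
Levels in CPM, with a linear axis from 0 for each gene, of the members in the finer groups of venous-marker cells led by Kit and by Igfbp5, in the WT and Prox1 mutant libraries; bars are exact 95% Poisson intervals. Selp stands at 502 and 270 CPM in the group led by Kit and at 884 and 992 CPM in the group led by Igfbp5, and Sele is higher in the mutant in both.

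Among the named endothelial classes other than venous-marker, the differences were mostly in arterial-type cells. Icam1 stood there at 112 CPM in WT against 189 CPM in the mutant (log2 0.76, 0.45 to 1.06). Vcam1 stood at 50.8 and 105 CPM (1.05, 0.62 to 1.49, or 2.07-fold), but 55 of 111 mutant UMIs came from 1 cell, and without it the mutant level was 54.0 CPM. The Vcam1 difference lay between 0.39 and 1.09 over 11 alternatives, 1 of which left the top cell out of both libraries. It was past 2-fold in 5 of them. Icam2 differed by -0.12. Of these 3 members 1 was at least 2-fold higher, where 1.37% of genes were higher by that much and 2.71% lower; haemoglobin took 0.0341% of WT and 2.03% of mutant UMIs in this class. In capillary-type cells Icam1 differed by -0.02 and Icam2 by -0.23 (-0.50 to 0.04), and neither was past 2-fold, as 2.07% of genes were higher and 2.2% lower. Unnamed endothelial cells led by Fhod3 had Vcam1 at 12.6 and 80.8 CPM, from 9 and 31 UMIs. Those led by Cybb had Selp at 152 and 55.8 CPM, from 28 and 6 UMIs. Both were under the minimum of 50 UMIs, and members that reached it in these cells had intervals that held 0. Over all endothelial cells Sele stood at 35.4 and 72.6 CPM (2.05-fold), and 1 of 6 members was at least 2-fold higher, where 2.24% of genes were, with 1.72% lower. That Sele difference, 1.04, was past 2-fold in 4 of 12 alternatives and as low as 0.51. Venous-marker cells were 202 of 1143 WT and 111 of 600 mutant endothelial cells.

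Selplg, the gene of the ligand PSGL-1 on which leukocytes roll, was the leukocyte member of the set. Leukocytes held 87.0% of its WT and 82.1% of its mutant UMIs. It was highest among the named leukocyte classes in T and NK cells, at 349 CPM (293 to 412) over 47 cells of the WT library and 286 CPM (249 to 328) over 88 of the mutant. Neutrophils led by Cstdc4 came next at 274 and 227 CPM, then B cells (156 and 190 CPM), progenitors (161 and 149 CPM) and classical monocytes (145 and 163 CPM), whose order differed between the libraries. Resident-type macrophages stood at 86.9 and 97.2 CPM, neutrophils led by Camp at 70.2 and 55.2 CPM, and macrophages with interferon or inflammatory markers at 34.0 to 65.7 CPM. T and NK cells and neutrophils led by Cstdc4 did not differ beyond their intervals in WT. A small unnamed cluster led by Grm8 and Siglech, a marker of plasmacytoid dendritic cells, had 713 and 560 CPM in 20 WT and 24 mutant cells. A Selplg UMI was seen in 68.1% and 63.6% of T and NK cells, against 1.88% and 3.73% of Schwann cells. In venous-marker cells Selplg had 8 and 20 UMIs, 10 of the 20 in 1 cell. Between libraries 7 of 8 named classes with enough UMIs and at least 50 cells in each library had intervals that held 0. Inflammatory macrophages were lower in the mutant (48.6 against 34.0 CPM, log2 -0.52, -0.78 to -0.26). T and NK cells, with 47 WT cells, were not among the 8.

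Icam1 was found in leukocytes, endothelium and mesenchymal cells. Leukocytes held 48.2% and 56.9% of its UMIs, endothelial cells 27.5% and 17.2%, and mesenchymal cells, the fibroblast-like cells of the joint, 12.5% and 11.9%. Its highest level among the 15 classes plotted was in neutrophils led by Cstdc4, at 581 CPM (525 to 640) in WT against 403 CPM (365 to 443) in the mutant. Neutrophils led by Camp, whose leading genes are those of granule-forming, less mature cells, stood at 51.9 and 21.4 CPM (91 and 52 UMIs, log2 -1.28, -1.80 to -0.77). Classical monocytes stood at 254 and 183 CPM (-0.47) and resident-type macrophages at 215 and 154 CPM (-0.48). Macrophages went the other way in the remaining classes, 122 and 162 CPM in interferon-responding cells (0.41) and 66.7 and 98.9 CPM in inflammatory ones (0.57). Over 14 named classes with enough UMIs and at least 50 cells in each library, Icam1 was above WT in the mutant in 4 and below in 6. Its interval held 0 in 4. Of the 3 members compared in neutrophils led by Camp 1 was at least 2-fold lower, where 2.4% of genes were, with 2.55% higher. Of 2 members in neutrophils led by Cstdc4 none was past 2-fold, where 5.35% of genes were higher and 4.61% lower. Another neutrophil cluster, led by Ccl8, had 48 WT and 235 mutant cells with median depths of 20920.5 and 3783 UMIs, and Icam1 stood there at 109 and 103 CPM.

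Vcam1 was higher in the mutant library in most of the classes compared. Resident-type macrophages held the most among named leukocyte classes, 157 and 196 CPM, with 71 of 137 WT and 88 mutant UMIs in 1 cell each, which left 76.3 and 147 CPM. Interferon-responding macrophages stood at 41.3 and 72.4 CPM (log2 0.81). Inflammatory macrophages stood at 5.91 CPM (45 UMIs) in WT against 24.3 CPM (136 UMIs) in the mutant, a 4.12-fold difference (log2 2.04, 1.55 to 2.56), and a Vcam1 UMI was seen in 8.11% and 15.1% of cells. Schwann cells, which gave a measure of free RNA at a lower depth (medians of 3515 and 4138 UMIs against 31650 and 27796.5), stood at 12.6 and 14.2 CPM. Other classes with few Vcam1 UMIs were not all level between the libraries. Erythroid cells had 3 and 34 UMIs (0.91 and 5.41 CPM) and B cells 1 and 9 (1.29 and 10.3 CPM). Classical monocytes had 4 and 20 (3.75 and 17.5 CPM) and neutrophils led by Cstdc4 4 and 3 (5.78 and 2.91 CPM). The part of free RNA in the macrophage levels was not tested. Of 3 members compared in inflammatory macrophages 1 was at least 2-fold higher, where 3.72% of genes were, with 1.5% lower. Over all monocytes and macrophages 2 of 5 members were at least 2-fold higher, Vcam1 (26.3 against 63.1 CPM, 2.40-fold) and Icam2 (2.97 against 6.25 CPM, 2.11-fold), where 6.36% of genes were and 1.48% lower, and the median log2 difference over all genes compared was 0.21. This pool included an unnamed subcluster led by Acta2 with 35 WT and 206 mutant cells. It held 0 of 363 WT and 92 of 949 mutant Vcam1 UMIs of the pool, and 2 of 41 and 20 of 94 Icam2 UMIs. Schwann cells had Icam2 at 4.37 and 1.29 CPM. The part of subset makeup or free RNA in the pooled values was not tested. Mesenchymal cells stood at 78.4 and 133 CPM (0.77, 0.60 to 0.94) and muscle cells at 349 and 283 CPM. The mesenchymal class included a shallow cluster led by Igha with 12 WT and 188 mutant cells. Median depth of the whole mesenchymal class was 12796 UMIs in WT against 5910 in the mutant, and the part this had in the values of the class was not tested. Of 9 named classes with enough UMIs and at least 50 cells in each library, 7 were higher in the mutant and 2 lower. Those 2 were progenitors (-0.75) and smooth muscle cells and pericytes (42.2 against 21.5 CPM, -0.98). The clusters of the latter differed between the libraries as given below. Muscle cells, with 89 WT and 35 mutant cells, were not among the 9.

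In the other classes few members passed 2-fold between the libraries. None did of 3 in interferon-responding macrophages, where 4.56% of genes were higher and 1.6% lower, of 3 in resident-type macrophages (2.28% and 1.67%), of 2 in classical monocytes (5.96% and 1.85%), of 2 in B cells (7.54% and 4.64%) or of 3 in mesenchymal cells (3.64% and 3.6%). Taken as all neutrophils, none of 5 members did, with 3.21% of genes higher and 2.09% lower. In erythroid cells 1 of 3 was lower (Selp), where 8.35% of genes were lower and 2.49% higher. In smooth muscle cells and pericytes 1 of 3 was lower, Icam1 at 49.1 CPM in WT against 20.5 CPM in the mutant, where 1.41% of genes were lower and 3.02% higher, and median depth there was 9110 UMIs in WT against 2685 in the mutant. That class joined clusters of unequal makeup, since 1 WT and 158 mutant cells came from a shallow cluster led by Erbb4, and the part this had in its values was not tested.

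Icam2 and Selp were low in leukocytes. Icam2 stood at 33.4 and 18.3 CPM in B cells, 17.4 and 18.2 CPM in T and NK cells and 22.5 and 23.2 CPM in progenitors. Selp stood at 27.2 CPM in WT against 12.3 CPM in mutant progenitors (log2 -1.15), a class led by Prtn3, Elane, Ctsg and Mpo. Of 5 members compared in progenitors 2 were at least 2-fold lower, Selp and Icam1 (70.8 against 29.7 CPM), where 1.04% of genes were, with 4.1% higher. Erythroid cells held Selp at 17.3 CPM in WT, with 28 of 57 UMIs in 1 cell and 8.88 CPM without it, and 1.27 CPM in the mutant. In Schwann cells Selp was at 6.56 CPM in WT, 10 of 12 UMIs from 1 cell, and 1.29 CPM in the mutant, and Sele was at 0.547 CPM and 0 UMIs.

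The genes whose levels followed each member most closely were looked up over 15 classes in both libraries, as the Pearson correlation of log2(CPM + 10) over 30 profiles and 12751 genes. The profiles share their library and cells, so the values are descriptions. For Sele the nearest were Ccl21a (0.96), Gm30382 (0.96) and Stab2 (0.94). The lymphatic cells inside the venous-marker class held Ccl21a at 4058 and 9520 CPM and no Sele UMI, so this likeness is between classes and not between cells. For Selp they were Sele (0.93), Tacr1 (0.91), the substance P receptor gene, and Gm30382 (0.90). Ackr1 was nearest to F8 (0.82), Clca3a1 (0.80) and Tacr1 (0.78), and it correlated with Selp at 0.71. Icam2 was nearest to C430049B03Rik, Pecam1 and Pkn3 (0.96 each), and Selplg to Nfkbid, Cytip and Dock2 (0.96 each). Icam1 was nearest to Bcl3 (0.92), an NF-kB partner, and to the interferon-induced genes Ifi47 (0.90) and Trim30a (0.89). For Vcam1 the nearest included Gm4951 (0.80) and Emp1 (0.79).

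The other genes of the cascade were read from 6 lists holding 63 genes. Among 10 NF-kB pathway genes, the signalling that induces adhesion molecules, 5 were at least 2-fold higher in WT venous-marker than capillary-type cells, where 11.7% of all genes were, among them Relb (24.7 and 81.9 CPM in capillary-type and venous-marker cells) and Il6 (1.65 and 32.0 CPM). Of 9 cytokine receptors 4 were, among them Il1r1 (75.8 and 238 CPM) and Il6st (118 and 629 CPM), though Il6st also stands in the sinusoidal marker list. In the mutant 4 of 9 NF-kB genes and 3 of 9 receptors were, where 11.8% of all genes were, with Nfkbia at 216 and 456 CPM, Il1r1 at 57.6 and 251 CPM and Il6 at 1.72 and 35.3 CPM. Of the genes named here, Relb in WT and Il6 in both libraries reached the UMI minimum only through venous-marker cells. Their place in these counts is no test of the class, and the counts are descriptions. The median log2 ratios were 0.88 and 0.92 for the NF-kB list and 0.75 and 0.90 for the receptors in WT and mutant. The other lists had few genes that much higher: in WT 1 of 5 selectin and ligand genes, 1 of 8 ligand-synthesis genes, 0 of 3 integrin-list genes and 1 of 10 junctional genes. In the mutant the counts were 0 of 4, 1 of 7, 0 of 4 and 1 of 10. Their WT medians were -0.13, -0.15, 0.21 and -0.01, and their mutant medians -0.34, -0.18, 0.38 and -0.20. Between libraries few of these genes were past 2-fold in all endothelial cells, where 2.24% of all genes were higher and 1.72% lower by that much. None of the 10 junctional genes, 9 receptors or 10 ligand-synthesis genes was, and in the NF-kB list 1 of 10 was higher (Tnfaip2, 23.4 and 52.4 CPM) and 1 lower (Cxcl1, 19.5 and 8.42 CPM). The integrin list also holds Fermt3 and Tln1, which are not integrins, and genes that endothelial cells carry, such as Itgb1 (523 and 493 CPM). Of its 7 genes compared 3 were higher in mutant endothelial cells: Itga4 (3.81 and 20.8 CPM, with 33 of 99 mutant UMIs in 1 cell), Fermt3 (2.86 and 7.16 CPM) and Itgam (4.36 and 10.5 CPM). These 3 are leukocyte genes, and whether leukocyte RNA took part in the member values was not tested.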

How the data were processed

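The deposited files hold raw UMI counts per gene and cell barcode, which the authors made with Cell Ranger 7.0.1 on mm10, 1 count matrix for each of the 2 libraries. The labels name a 3' v2 kit and the study's methods v3.1, and the dissociation enzyme also differs between them. Such counts come from transcript 3' ends, so levels were not compared between genes. Barcodes needed 500 or more detected genes and a mitochondrial share below 10%. Depth per library is given in the report.

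The libraries were joined after SCTransform (sctransform 0.4.2, Seurat 5.3.0, R 4.3.3; 3000 integration features less the 7 genes, 200 principal components, resolution 1.5), which gave 45 clusters. Endothelial and myeloid clusters were clustered again (30 components, resolution 0.5). A marker was raised when it was at least 2-fold over the rest after a prior of 5 CPM, in at least 10% of cells. A cluster took the name of the marker list with the highest mean log ratio among lists with at least 3 raised genes, and 16 stayed unnamed. The rule that shallow clusters without own markers among their top 10 genes stay unnamed, the venous-marker class and the split of lymphatic and Stab2-positive cells were added after the clusters were seen. No doublet was called at the automatic threshold of Scrublet (scanpy 1.11.5), so the main values keep all cells and an alternative removed the 239 WT and 462 mutant barcodes with the highest scores.

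UMIs were summed per library and class. Levels are CPM with exact Poisson intervals, shares have exact Clopper-Pearson intervals, and differences between libraries or classes are log2 ratios with exact conditional binomial intervals (scipy 1.17.1, numpy 2.4.6, Python 3.11.15). Where a class had 0 UMIs, the limit is the level of 3 UMIs over that class. Ratios were compared with 2-fold for genes with at least 50 UMIs in the pair of sums, over all genes tested in the same way, and no p-value was computed. On simulated counts for venous-marker cells, 99.5% of 189 genes changed 4-fold and 0.187% of 8539 unchanged genes were past 2-fold, and 96.6% of 95% intervals held the true ratio. These counts were Poisson draws of class sums, the model the intervals assume, with no spread between cells or libraries. They check the calculation and cannot show how the intervals hold in the real cells. Genes named are the 7 members, Prox1, genes of the pathway lists (always the top 2 and bottom 2 by mutant over WT ratio in all endothelial cells) and the 3 nearest profiles of each member (some genes are not reported here), apart from markers and leading genes of classes. The members, gene lists and classes were chosen with earlier results of these data known. The alternatives tried were other cell filters, doublets removed, no integration, fewer components, the members kept as features, other subcluster resolutions, the mean of single-cell CPM, CPM without haemoglobin and mitochondrial genes, the top cell left out, other thinning depths and other UMI minimums.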

Additional observations from a re-analysis of the deposited data

Results flagged for a closer look

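The library difference of Icam1 ran in opposite directions in different cells. It was 0.76 (0.45 to 1.06) on the log2 scale in arterial-type cells, and -1.28 (-1.80 to -0.77) in neutrophils led by Camp. Vcam1 was likewise higher in mutant inflammatory macrophages, by 2.04 (1.55 to 2.56), from a WT level of 5.91 CPM in which the part of free RNA was not tested. It was lower in smooth muscle cells and pericytes, at -0.98, a class in which 1 WT and 158 mutant cells came from a shallow cluster led by Erbb4. With 1 library per genotype the differences between these cell types were not tested, and the intervals cover counting error only.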

How the results depend on the processing

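No paired analysis was possible because each genotype was 1 library and the labels carry no replicate numbers. Of 210 alternative values of the venous-marker differences, between libraries or against capillary-type cells, 184 stayed within the counting interval, 26 moved, and no difference past 2-fold changed sign. The venous-marker difference, mutant over WT, moved as follows. For cells of 1000 or more genes and below 5% mitochondrial UMIs it was 0.68 for Sele, -0.90 for Selp and 0.089 for Vcam1. For 200 or more genes and below 20% it was -0.81 for Selp and -1.30 for Ackr1. Selp was at -0.66 without integration, -0.78 with 30 components and -0.66 without its top cell. With the mean of single-cell CPM it was -0.58 for Icam2, 0.41 for Vcam1 and -0.52 for Ackr1. At resolution 1.0, where the class name went to the group led by Igfbp5 alone, it was 1.65 for Sele, 0.17 for Selp, -0.041 for Vcam1 and 0.074 for Ackr1, so that Selp, Vcam1 and Ackr1 changed sign. Over these alternatives Sele ran from 0.68 to 1.65 and was past 2-fold in 7 of 12. Between venous-marker and capillary-type cells, Icam1 was at 1.93 without integration, 1.88 at resolution 0.2, 2.73 at 1.0 and 2.70 by single-cell means in WT, and at 1.81 with members kept as features, 1.69 at 0.2 and 2.65 at 1.0 in the mutant. At 1.0 Icam2 was at -0.22 in WT and -0.39 in the mutant and mutant Selp at 8.18, and at 0.2 mutant Vcam1 was at 3.77. The cause was not tested. The background followed the UMI minimum: 176 genes were higher and 177 lower in venous-marker cells at 50 UMIs, 384 and 391 at 20, and 51 and 53 at 200. Venous-marker over capillary-type cells, 494 were higher and 382 lower in WT at 200, and 410 and 294 in the mutant, with 1021 lower in the mutant at 20. Of 303 other differences 41 moved and none past 2-fold changed sign. Of the 14 thinned shares 6 moved at 1000 UMIs and 8 at the largest number tried, where Icam1 was seen in 50.5% of WT against 39.6% of mutant cells. The pairings with Selp were not computed at these depths. The lymphatic and Stab2-positive cells number 4 to 11 in a library, which limits their values.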

Other observations

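Glycam1, the gene of a selectin ligand made by the high endothelial venules of lymph nodes, was seen in WT but not in mutant endothelial cells. It had 68 UMIs in 10 WT cells, 23 of them in 1 cell, and 0 UMIs in mutant endothelial cells. Of these 10 cells 9 were venous-marker cells. Icam1 and Icam2 were seen in 10 of 10, Selp in 9, Ackr1 in 8, Vcam1 in 7 and Sele in 3. Set against the shares of all WT venous-marker cells given above, Selp and Ackr1 were seen more often, while Vcam1 and Sele were near those shares. Depth was not made equal for these 10 cells. Madcam1 and Fut7, other genes of high endothelial venules, were seen in 0 of them, and Chst4 in 1.

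On the leukocyte side, the integrin genes were read as WT against mutant. Itgal, the alpha chain of LFA-1 that binds Icam1, stood at 90.1 against 169 CPM in inflammatory and 84.0 against 169 CPM in interferon-responding macrophages, and at 306 against 288 CPM in T and NK cells. Over all monocytes and macrophages 0 of 10 integrin-list genes were past 2-fold, where 6.36% of all genes were higher and 1.48% lower. Their median log2 difference was 0.24, against 0.21 over all genes compared. Itga4, the alpha chain of VLA-4 that binds Vcam1, stood at 435 against 428 CPM in B cells and 301 against 412 CPM in T and NK cells.

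Over all endothelial cells the library differences of Ackr1, Vcam1 and Sele depended on how levels were averaged. For Ackr1 the summed counts gave a log2 difference of -0.95 and the mean of single-cell levels -0.28, for Vcam1 0.39 and 0.59, and for Sele 1.04 and 0.74.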
